A study of Mus musculus with 24 samples.

Results

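The 6 testes of 49-day NSun2 knock-out mice (KO49) differed widely in their transcripts of spermatids, which ran from near the wild-type level in one testis to a small remainder in another, while the 6 wild-type testes of the same age (WT49) lay close together. The 6 KO49 arrays, of 24 arrays in the series, were chosen by their labels and placed in an order chosen by the mean of measured log2 values, as deposited by the authors, of 5 spermatid genes: Catsper1, Izumo1, Tssk6, Prm3 and Spata3. Each gene was read by 1 probe, the one with the highest mean over all arrays, and the position of an array in the order is a description of these values, which no test supports. From the highest to the lowest mean the order was F, A, B, E, C and D, the letters being the replicate names. Series of 6 KO49 values are given in that order throughout.

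RNA was taken from whole mouse testis and read on Illumina expression beadchips with 1 colour, 1 array for each sample. The groups used were KO49, NSun2 KO at 49 days, and WT49, NSun2 wild type at 49 days, with 6 arrays each; NSun2 KO and wild-type arrays of 15 days (KO15 and WT15, 6 each) served only where named. Every sample carries the strain label F1 generation of CBA x C57BL/6J. Knock-out mice came from 2 lines, one from the gene-trap embryonic stem cell line D014D11 and one carrying Nsun2tm1a(EUCOMM)Wtsi; the line behind a given KO49 array is not labelled. Nothing in the labels says that the 6 arrays of a group are 6 animals, so p-values measure only the spread between these samples, which may be technical.

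NSun2 is an enzyme that methylates cytosine at carbon 5 in RNA, including transfer RNA. Male germ cells develop in the wall of the seminiferous tubule, held by Sertoli cells: spermatogonia divide by mitosis, spermatocytes pass through the long prophase of meiosis, and the resulting haploid round spermatids elongate, replace their histones by protamines and build an acrosome and a flagellum. In mice the first wave of germ cells reaches the spermatid stages in the weeks between the younger and the older age sampled here, so genes of spermatids are low in the young testis and high in the adult one. In RNA from whole testis, fewer cells of a type and less RNA per cell cannot be told apart.

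The targeted gene was near the limit of detection. Nsun2 stood at background-corrected log2 levels of 5.54, 5.15, 5.43, 5.5, 6.07 and 5.14 on the KO49 arrays, against 5.8 to 7.01 with a median of 6.78 on the WT49 arrays. It was above background on none of the KO49 arrays and on 3 of the 6 WT49 arrays, and the lowest WT49 value lay below the highest KO49 value. Nsun2 was at least 1.18-fold lower in KO49 (limma adjusted p = 0.00158). Of the 15 pairs of KO49 arrays, 8 had the higher value on the array with more spermatid transcript. As the gene was above background on none of these arrays, a relation of its level to the order could not show. The position of the probe relative to the inserted cassettes is not given in the sources used here, so this checks the labels only in part.

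On the authors' log2 scale the mean of the 5 ordering genes was 12.2 on F, 11.58 on A, 9.91 on B, 9.8 on E, 9.25 on C and 8.57 on D, against 12.89 to 12.97 with a median of 12.94 on the WT49 arrays. The KO49 mean was 10.22 ± 1.39 and the WT49 mean 12.93 ± 0.04 (SD, n = 6 each). All 6 KO49 means lay below all 6 WT49 means, F by the smallest distance. Neighbours in the order were unevenly spaced: A stood 1.67 above B, C stood 0.68 above D, F stood 0.61 above A and E stood 0.55 above C, and in each of these steps the 5 genes differed the same way. B stood only 0.11 above E, with 3 of the 5 genes higher on B, so the order of these 2 arrays is not settled by the genes that define it. The 15-day arrays had means of 7.66 to 7.86 in KO15 and 7.7 to 7.78 in WT15, so D lay between the 15-day level and the other KO49 arrays.

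**Figure D1:**
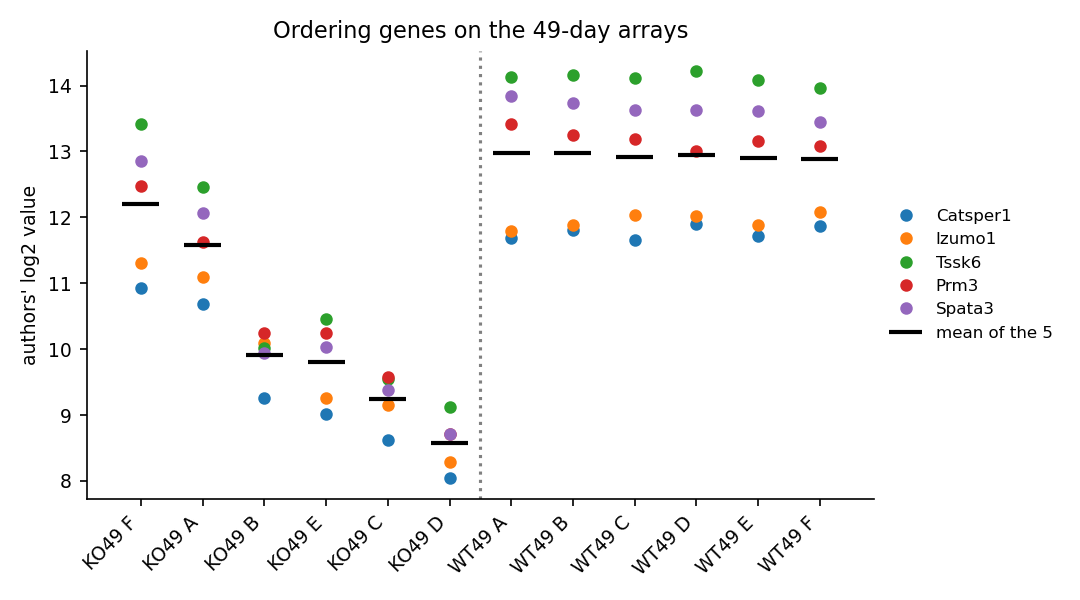
Level of the 5 ordering genes (points, authors' log2 value) and their mean (black line) on each KO49 array, in order, and on each WT49 array. The KO49 means fall over a range of 3.62 from F to D, and the WT49 means span 0.08.

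Each ordering gene belongs to the late stages of germ cell development. Catsper1, a subunit of the calcium channel of the sperm tail, had background-corrected log2 levels of 10.79, 10.51, 8.74, 8.36, 7.66 and 6.19, against 11.57 to 11.83 in WT49 (median 11.69), and on D it was not above background. Izumo1, the sperm surface protein that binds the egg, had 11.19, 10.96, 9.82, 8.73, 8.57 and 6.92, against 11.72 to 12.02 (median 11.9). Prm3, of the protamine gene cluster, had 12.44, 11.54, 10.01, 9.99, 9.17 and 7.84, against 12.99 to 13.41 (median 13.16). These 3 genes were lower at every step of the order. Tssk6, a testis kinase of spermatids, had 13.41, 12.42, 9.73, 10.25, 9.12 and 8.52, against 13.97 to 14.22 in WT49 (median 14.12). Spata3 had 12.83, 12.02, 9.63, 9.75, 8.9 and 7.84, against 13.44 to 13.84 (median 13.63). In both of these genes only B and E changed places.

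The promoter windows of ordering genes were read from RefSeq (GRCm38.p6, 250 bases before to 50 bases after the gene start), because the 5 genes move together and a cAMP response element is the binding motif of CREM, a transcription factor of spermatids. The motif TGACGTCA and its core TGACG were searched on both strands, and a full motif holds the core on each strand. Izumo1 (chr7:45621561-45621860, plus strand) holds the full motif and Tssk6 (chr8:69901934-69902233, plus strand) holds the core. Capitals mark the matched letters in these 2 windows, shown because they are the ordering genes with a match:
Izumo1: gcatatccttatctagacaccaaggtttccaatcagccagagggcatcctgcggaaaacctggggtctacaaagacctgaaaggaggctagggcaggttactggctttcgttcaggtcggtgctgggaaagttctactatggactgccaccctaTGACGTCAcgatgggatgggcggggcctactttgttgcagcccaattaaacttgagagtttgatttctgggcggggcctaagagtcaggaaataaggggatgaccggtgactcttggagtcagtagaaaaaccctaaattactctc
Tssk6: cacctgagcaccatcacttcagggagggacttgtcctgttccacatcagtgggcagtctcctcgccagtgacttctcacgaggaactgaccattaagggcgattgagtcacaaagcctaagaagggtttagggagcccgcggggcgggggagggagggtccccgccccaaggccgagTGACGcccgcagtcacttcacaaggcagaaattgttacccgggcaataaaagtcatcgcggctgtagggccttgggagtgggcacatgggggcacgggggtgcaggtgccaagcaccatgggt
The windows of Prm3 (chr16:10790865-10791164, minus strand) and Spata3 (chr1:86021695-86021994, plus strand) hold neither set of letters, and Catsper1 was not matched. Over all 32851 promoter windows in the table, 1.79% hold the full motif and 20.8% the core. Among genes whose level followed the order (defined in the next paragraph), 3.44% of the 1426 with a window hold the full motif and 29.1% the core. Of all tested genes, 9864 have a window, and 3.42% of these hold the full motif and 33.3% the core. A gene was counted if any of its windows held the letters, so these shares cannot be set against those per window. The share in genes that followed the order was thus at or below that of the tested genes as a whole.

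The order was then read against every other gene. The 22639 brightest of 45278 probes were tested, and the 12176 genes they name were each represented by their brightest probe. For each gene, the 15 pairs of KO49 arrays were checked for whether the array with the higher ordering mean also had the higher level, and a gene was said to follow the order at 14 or 15 pairs and to run against it at 0 or 1, with a range of at least 1 log2 over the 6 arrays. Leaving out the ordering genes, 1757 of 12171 genes followed the order, 14.4%, and 2693 ran against it, 22.1%. The balance depends on the scaling, since with cyclic loess in place of quantile normalization 2370 genes followed the order and 1312 ran against it. A further 570 genes had 13 pairs and 1135 had 2 pairs with that range, while 88 genes with 14 or 15 pairs and 303 with 0 or 1 spanned less than 1 log2. Since the order was taken from the same arrays, these counts carry no p-value.

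**Figure D2:**
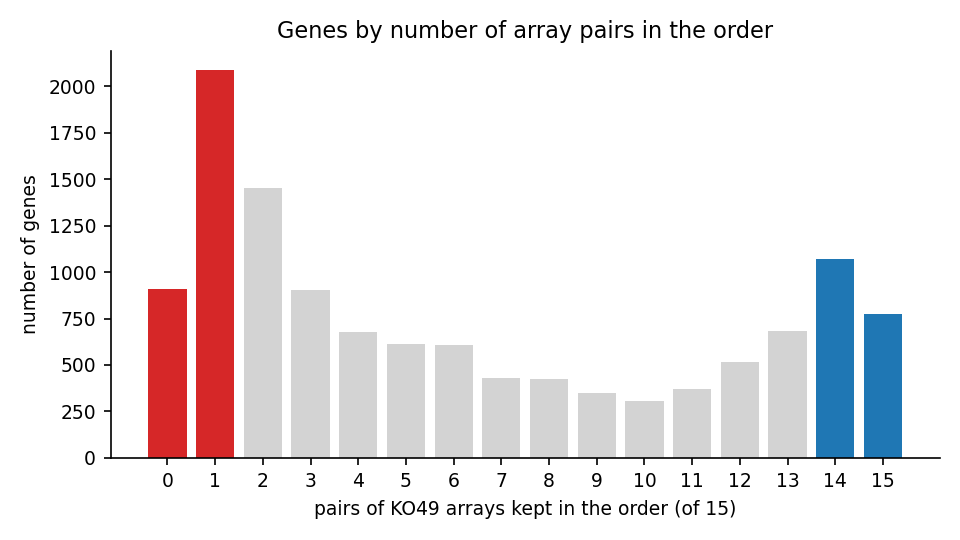
Number of genes (vertical axis) by how many of the 15 pairs of KO49 arrays had the higher level on the array with the higher ordering mean (horizontal axis), over 12171 genes. The counts pile up at both ends, with 1845 genes at 14 or 15 pairs (blue) and 2996 at 0 or 1 (red), before the range of at least 1 log2 is asked for.

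The KO49 arrays spread far more than the WT49 arrays over the genes as a whole. The median SD of a gene was 0.57 in KO49 and 0.17 in WT49, and the range was larger in KO49 for 92.6% of genes. Any 2 WT49 arrays differed by at least 1 log2 in 73 to 261 genes (median 186). Among KO49 arrays that number was 204 for E and C and 256 for F and A, within the span of WT49 pairs, 572 for B and E, and 912 for B and C. It was 1813 for A and B, 3494 for C and D, and 7235 for F and D. Thus A and F were as alike as WT49 arrays are, E and C were too, and D differed from its nearest neighbour, E, by 3269 genes.

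Taken singly, 3 technical measures did not line up closely with the order, whereas the distance of the signal above the dim controls partly did. Median probe intensity kept 9 of the 15 pairs (227.3 to 273.2 in KO49, 223.9 to 246.7 in WT49), the median of dim control rows kept 7, and the number of probes above background kept 10. That number was 16931 on D, the lowest in KO49, and up to 19031 on the others, against 16267 to 18363 on the WT49 arrays. The distance of median probe intensity above the dim control median was smallest on D among KO49 arrays (233.3 and 205.5). It was next smallest on C (227.3 and 194.2) and then on E (237.7 and 200.4). Larger distances were found on F (228.9 and 190.1) and A (269.1 and 225.3), and the largest on B (273.2 and 228.9). E, C and D thus held the same last places in this distance as in the order. A technical part in the order, above all in the place of D, was not tested. The arrays lay on 4 slides, with F and E on one slide, A and D on another, and B and C without another KO49 array on theirs. Within those slides F exceeded E and A exceeded D in spermatid transcripts, as given with the gene lists.

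Against WT49, 7980 of 12176 genes were changed in KO49 (65.5%, limma adjusted p under 0.05), of which 5101 were higher (41.9% of tested genes) and 2879 lower (23.6%). The median gene shifted by 0.30 on the log2 scale, and with cyclic loess in place of quantile normalization that median was -0.07 and the share of higher genes among those changed was 42.6% in place of 63.9%. Of the 1757 genes that followed the order, 1525 were changed and all 1525 were lower in KO49. Of the 2693 that ran against it, 2387 were higher and 1 lower. Of the 7721 genes that did neither, 4062 were changed, 2714 higher and 1348 lower.

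Age classes taken from wild-type arrays alone separated the genes that followed the order from those that ran against it. In WT testis, 95.4% of the genes that followed the order were higher at 49 than at 15 days (29.2% of all tested genes), and 95.1% of those that ran against it were lower (57.2% of all). Late-onset genes, above background on no WT15 array and on every WT49 array and higher at 49 days, numbered 873 (7.17% of tested genes). Of the 868 that are not ordering genes, 75.5% followed the order and 1 ran against it. Among 3088 genes (25.4%) above background on all WT arrays and lower by at least 1 log2 at 49 days, 49.2% ran against it and 1 followed. Among 888 genes (7.29%) above background on all WT arrays and within 0.25 log2 between the ages, 5.41% followed the order and 6.19% ran against it. The median range of these age-steady genes was 0.84 in KO49 and 0.36 in WT49.

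On the late-onset genes alone, each KO49 array lay between the WT15 and WT49 means. Counted from the WT15 mean as 0% to the WT49 mean as 100%, the median late-onset gene, ordering genes included, stood at 88.5% on F, 82.9% on A, 52.2% on B, 43.9% on E, 37.6% on C and 14.8% on D. Of the 868 that are not ordering genes, 21, 43, 177, 263, 310 and 577 were not above background on the KO49 arrays in the order; on the WT49 arrays all are above it by definition, so only the KO49 arrays can be set against each other here. Even F was below every WT49 array by at least 1 log2 in 61 of the 873, ordering genes included, and 56 were that far below on all 6 KO49 arrays. Because these genes were chosen for a high level on the WT49 arrays, their distances below WT49 and the percents above are descriptions and no test. In 17 late-onset genes no KO49 array was that far below. Gene lists described below did not all place D between the ages. Relative to the WT49 mean, the round spermatid list did (-4.17 on D, -6.55 to -5.75 on the WT15 arrays). Early meiotic prophase did not (-2.87, WT15 0.06 to 0.35), nor did cell division (-1.16, WT15 1.04 to 1.24) or Leydig cells (2.37, WT15 -1.82 to -0.83).

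Counting all genes at least 1 log2 outside the span of the WT49 arrays gave the same order of arrays. Below the span were 109, 405, 1527, 1969, 1978 and 2773 genes, and above it 16, 105, 1805, 2835, 2965 and 4028. For each WT49 array set against the other 5, the counts were 0 to 12 below and 0 to 11 above. On F and A more genes lay below than above, and on the other 4 arrays more lay above than below. In 88 genes all 6 KO49 arrays were below, and in 7 all 6 were above.

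**Figure D3:**
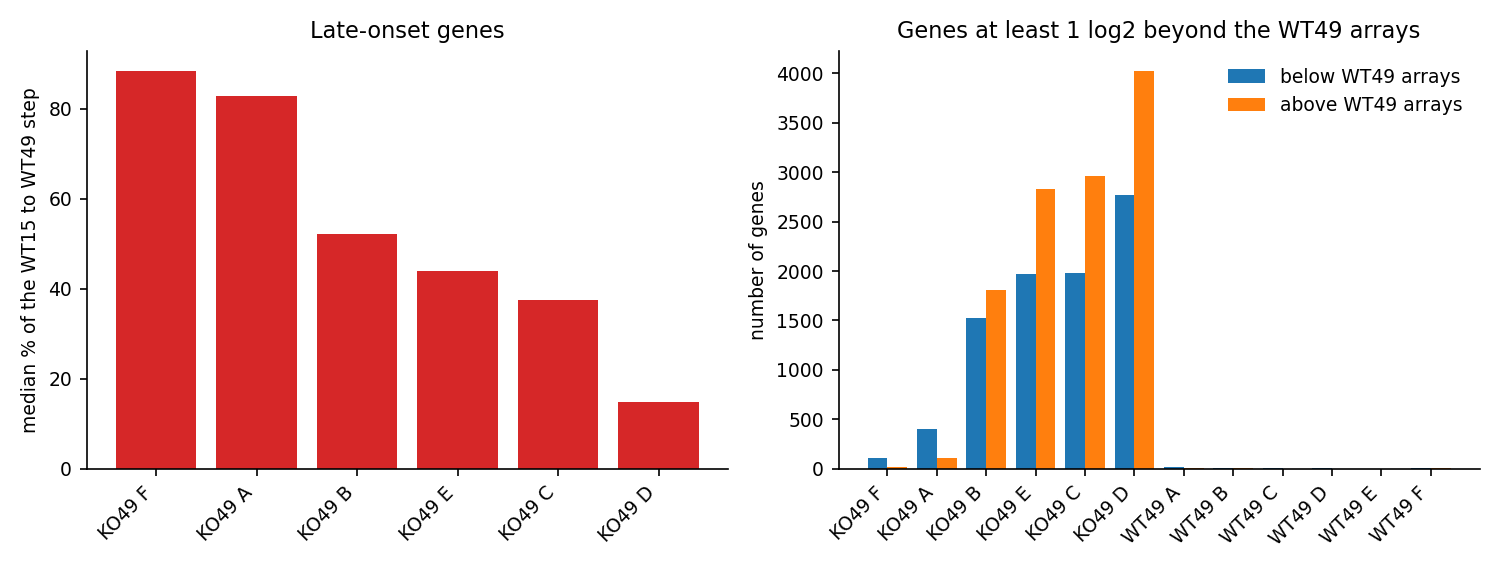
Left, median position of the late-onset genes on each KO49 array as a percent of the step between the WT15 and WT49 means. Right, number of genes at least 1 log2 below (blue) or above (orange) the WT49 arrays, for each KO49 array and for each WT49 array set against the other 5; KO49 counts rise to 2773 and 4028 on D, and WT49 counts reach at most 12.

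Genes with the widest range among those following the order were of late germ cells where their role is known. Fam71f1, which takes part in forming the acrosome, had 11.79, 11.07, 8.7, 6.98, 6.27 and 4.97, against 11.89 to 12.28 in WT49 (median 12.09), and was not above background on C and D. Tppp2, a tubulin-binding protein of the sperm tail, had 11.89, 10.83, 7.78, 7.9, 6.4 and 5.59, against 12.36 to 12.86 (median 12.52). Eqtn, equatorin of the acrosomal membrane, had 10.73, 10.84, 9.02, 7.75, 7.34 and 5.04, against 10.95 to 11.92 (median 11.66). In these 3 genes F and A lay below every WT49 array, A by the most in Tppp2, and D had all but lost the signal. Against WT49, all 3 fell, Fam71f1 with a log2 change of -3.79 ± 0.98 (SE, limma adjusted p = 0.00583), Tppp2 with -4.15 ± 0.89 (limma adjusted p = 0.0024) and Eqtn with -3.1 ± 0.81 (limma adjusted p = 0.00615). Where an array is not above background the fitted change depends on the offset of the background correction.

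The other 5 genes with the widest ranges behaved alike. Spata32 had 11.38, 10.23, 7.75, 8.04, 6.31 and 5.13, against 11.89 to 12.27 in WT49 (median 12.09), and Trp53tg5 had 11.87, 10.98, 9.05, 8.56, 7.91 and 5.72, against 12.62 to 12.85 (median 12.68). Both lay below the WT49 span on every KO49 array. Zcchc13, a zinc-knuckle gene, had 11.66, 11.38, 9.72, 8.9, 7.45 and 5.73, against 11.55 to 11.86 (median 11.66). Tmsb15a, of the actin-binding thymosins, had 11.21, 10.95, 9.09, 8.62, 7.59 and 5.46, against 10.13 to 11.91 (median 11.63). Cypt1, a cysteine-rich protein of the sperm perinuclear theca, had 11.89, 12.05, 9.77, 8.56, 7.47 and 5.65, against 11.73 to 12.04 (median 11.85). In Zcchc13, Tmsb15a and Cypt1 the values of F, or of F and A, lay inside or just above the WT49 span, and the fall was carried by the other arrays. Zcchc13 fell (log2 change -2.55, SE 0.83, limma adjusted p = 0.0179). Cypt1 fell (log2 change -2.63, SE 0.91, limma adjusted p = 0.0237), and without KO49 replicate C its fall of 2.28 had an adjusted p of 0.0564 by limma.

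Lists of genes known for a germ cell stage or a cell type were read next; list members named beyond the 3 with the widest KO49 range were picked after their values were seen. The counts of each list stand beside those of all tested genes, of which 41.9% were higher, 23.6% lower, 14.4% followed the order and 22.1% ran against it. The round spermatid list, 16 genes besides the ordering genes, had 15 lower (23.6% of all tested genes) and none higher, and 15 following the order (14.4% of all). Its mean level minus the WT49 mean was -0.41, -0.49, -1.55, -2.22, -2.54 and -4.17, with the WT49 arrays within -0.07 to 0.08. Crem, the transcription factor that switches on many spermatid genes, had 12.3, 12.42, 11.62, 10.32, 10.16 and 8.38, against 12.66 to 12.8 in WT49 (median 12.78). Theg, a spermatid gene, had 11.11, 10.46, 8.83, 8.27, 8.07 and 7.47, against 12.1 to 12.25 (median 12.22). Gsg1, a germ cell membrane protein, had 15.53, 15.02, 13.48, 13.41, 12.49 and 11.21, against 15.75 to 15.82 (median 15.77). Crem, Theg and Gsg1 were below every WT49 array on all 6 KO49 arrays, Theg by the most on F. All 3 fell, with log2 changes of -1.89 for Crem (limma adjusted p = 0.0122), -3.16 for Theg (limma adjusted p = 0.000887) and -2.25 for Gsg1 (limma adjusted p = 0.00568). Catsper2, another subunit of the sperm calcium channel, was the member that did not follow the order, at 13 pairs.

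The elongating spermatid list, 17 genes besides the ordering genes, had 16 lower (23.6% of all tested genes), none higher and 15 following the order (14.4% of all), and its mean minus the WT49 mean was -0.25, -0.85, -2.49, -2.53, -3.21 and -4.37 (WT49 arrays -0.12 to 0.12). Odf1, of the outer dense fibres of the tail, had 15.27, 14.71, 13.26, 12.71, 11.6 and 10.59, against 15.6 to 15.67 in WT49 (median 15.63). Tnp1, the transition protein that precedes protamine, had 15.55, 15.43, 14.21, 14.33, 13.66 and 12.34, against 15.54 to 15.73 (median 15.61). Prm1, the main protamine, had 15.75, 15.75, 15.34, 15.7, 14.96 and 14.28, against 15.66 to 15.76 (median 15.71), with a change of -0.41 that did not pass (limma adjusted p = 0.141). Among these 3, Odf1 was below every WT49 array on all KO49 arrays, whereas Prm1 was within or near the WT49 span on F, A and E. Fscn3, an actin-bundling protein of elongating spermatids, was lower (limma adjusted p = 0.0192, and 0.0568 on the authors' log2 values) without following the order: it had 9.88, 6.13, 5.24, 4.96, 6.83 and 6.04, against 7.58 to 11.24 (median 8.38). On the 2 slides that hold 2 KO49 arrays, the list mean was 2.28 higher on F than on E and 3.52 higher on A than on D.

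The flagellar axoneme list had 7 of 8 genes lower, none higher and 7 following the order, where all tested genes gave 23.6% and 14.4%, with means of -0.24, -0.41, -1.33, -1.91, -1.91 and -4.18 (WT49 arrays -0.03 to 0.05). Tekt5, a tektin of the tail microtubules, had 10.04, 9.38, 8.11, 7.67, 7.45 and 5.87, against 10.61 to 10.85 in WT49 (median 10.75), and fell (log2 change -2.66, SE 0.54, limma adjusted p = 0.00189). Dnah17, a dynein heavy chain of the sperm tail, had 10.57, 10.25, 9.35, 8.97, 9.25 and 6.11, against 10.79 to 11.18 (median 11.01). Both were below background on D. Relative to the median of all tested genes, the list medians were -1.9 for the axoneme, -2.19 for round spermatids and -2.62 for elongating spermatids, and lay between -1.63 and -2.96 for these 3 lists under the other scalings.

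In several genes of spermatocytes D was set apart from the other arrays. The pachytene and late meiosis list had 7 of 14 genes lower (23.6% of all tested genes), none higher and 8 following the order (14.4% of all), with means of -0.13, -0.16, -0.81, -1.38, -1.25 and -3.36 (WT49 arrays -0.06 to 0.05). Pgk2, the glycolytic enzyme that replaces its X-linked form in meiotic cells, had 14.33, 14.19, 12.72, 12.4, 11.83 and 10.04, against 14.51 to 14.9 in WT49 (median 14.68), and fell (log2 change -2.12, SE 0.58, limma adjusted p = 0.00805). Ccna1, a cyclin needed to leave meiotic prophase, had 11.5, 11.49, 10.4, 9.58, 9.9 and 7.39, against 11.7 to 12.16 (median 11.82). Piwil1, which binds piRNAs, had 14.14, 14.39, 13.82, 13.41, 13.75 and 11.01, against 13.89 to 14.18. Pgk2 and Ccna1 were below every WT49 array on all 6 KO49 arrays, F and A by the least. Piwil1 was below the WT49 span on B, E, C and D, by far the most on D. In 8 of the 14 genes D was set apart below the other 5 arrays.

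In the early meiotic prophase list 2 of 13 genes were lower, none higher and none followed the order or ran against it, where all tested genes gave 23.6% lower, 41.9% higher, 14.4% following and 22.1% against. Its means were 0.22, -0.23, 0, -0.54, 0.23 and -2.87, with the WT49 arrays at -0.45 to 0.16. Syce1, whose level jumped between arrays of both groups, carries much of that spread: without it the means were 0.08, 0.22, -0.02, -0.09, 0.16 and -2.91 and the WT49 arrays lay at -0.06 to 0.09, an alternative chosen after seeing the data. In 10 of the 13 genes D was set apart below the others, by the criterion that the gap to the nearest array was at least 1 log2 and most of the range. Sycp1, of the synaptonemal complex, had 8.97, 9.68, 8.95, 8.85, 8.93 and 5.67, against 8.34 to 9.14 in WT49 (median 8.61). Spo11, which makes the DNA breaks that start recombination, had 12.77, 12.96, 12.53, 12.31, 12.59 and 9.38, against 12.28 to 12.76 (median 12.59). Smc1b, a meiotic cohesin, had 12.29, 12.41, 12.33, 12.53, 12.63 and 9.57, against 12.09 to 12.24 (median 12.2). Sycp1, Spo11 and Smc1b were within 1 log2 of the WT49 span on 5 KO49 arrays and far below it on D. The 2 members that fell did otherwise. Rec8, a meiotic cohesin subunit, had 9.99, 9.67, 9.49, 9.45, 10.02 and 8.83, against 10.62 to 11.03 in WT49 (median 10.94), so all 6 KO49 arrays were below every WT49 array (log2 change -1.33, SE 0.19, limma adjusted p = 0.000571). Syce2, of the synaptonemal complex, had 9.62, 9.35, 8.33, 8.61, 8.9 and 6.49, against 9.46 to 9.99 (median 9.87), and was below the WT49 span on every KO49 array but F (log2 change -1.22, SE 0.42, limma adjusted p = 0.0233). Without D the list had 2 genes lower and 2 higher, beside 2910 and 5193 of all 12176 tested genes. Its median change was then 0.18 in place of -0.45, and its mean kept 5 of the 10 remaining pairs, or 6 without Syce1.

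**Figure D4:**
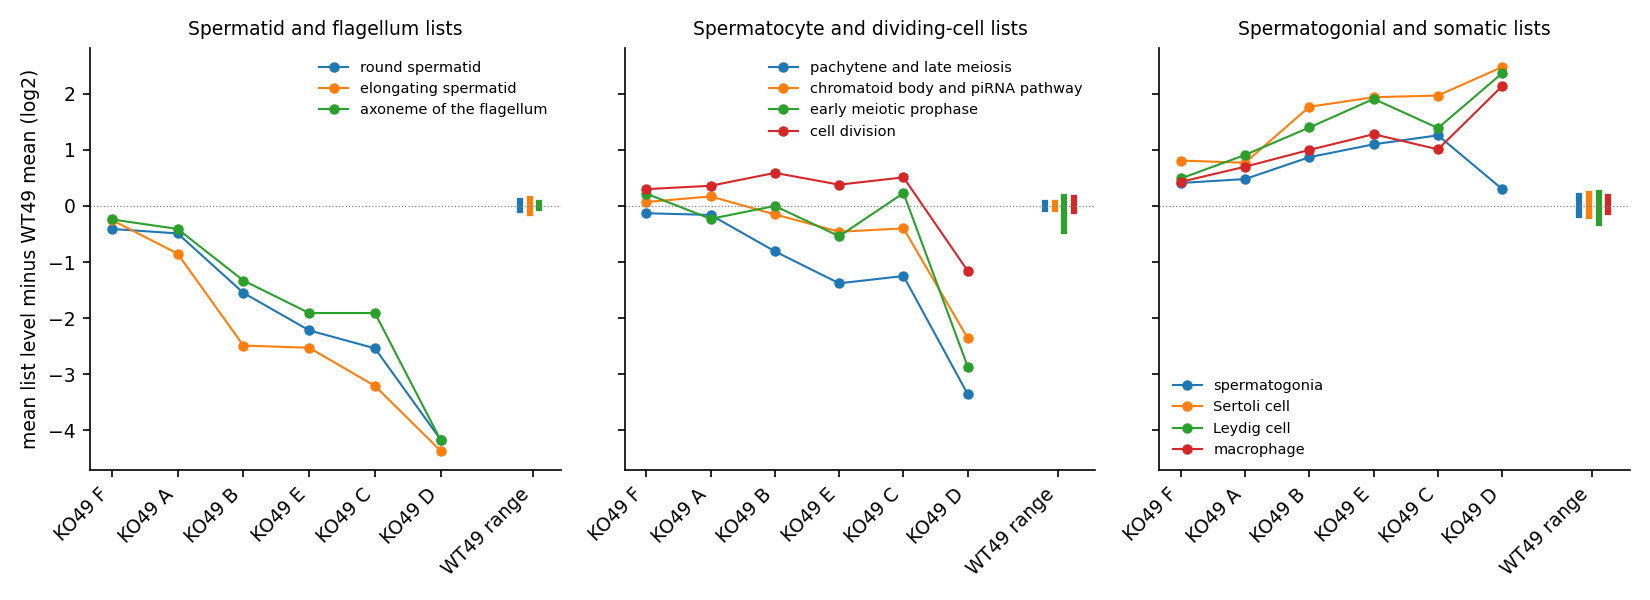
Mean log2 level of gene lists minus the WT49 mean, on the KO49 arrays in order, with bars for the span of the WT49 arrays. Spermatid and flagellum lists decline along the order to between -4.17 and -4.37 on D (left). The pachytene and late meiosis list declines too, from -0.13 on F to -1.25 on C and -3.36 on D (centre). Early meiotic prophase, chromatoid body and cell division lists drop mainly on D (centre). Somatic lists stand higher along the order while the spermatogonial list reaches 1.26 on C and 0.3 on D (right).

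The chromatoid body and piRNA pathway list, proteins of the RNA granule of spermatocytes and spermatids, was mixed. Of its 19 genes 3 were lower and 3 higher (23.6% and 41.9% of all tested genes), none followed the order or ran against it, and the means were 0.07, 0.17, -0.15, -0.46, -0.4 and -2.36 (WT49 arrays -0.05 to 0.05). D was set apart below in 10 of the 19. Ddx25, an RNA helicase of spermatids, had 14.78, 14.78, 14.09, 13.83, 13.88 and 11.18, against 14.75 to 14.93 in WT49, so it was lower from B on. Mov10l1, a helicase of piRNA production in spermatocytes, had 11.52, 11.42, 12.12, 12.22, 12.35 and 8.98, against 10.95 to 11.34, so it lay above every WT49 array on 5 KO49 arrays and below them on D. Kif17, a motor protein that binds a partner of CREM, had 7.6, 7.85, 6.44, 5.79, 5.63 and 5.75, against 8.48 to 9.47, and fell (log2 change -2.54, limma adjusted p = 0.000705). Without D, 6 of the 19 genes were lower and 8 higher, beside 2910 and 5193 of all 12176 tested genes.

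Cell division genes had 4 of 12 higher and 1 lower, shares below the 41.9% and 23.6% of all tested genes, and 1 following the order, with means of 0.3, 0.36, 0.59, 0.38, 0.51 and -1.16 (WT49 arrays -0.09 to 0.15). Top2a, the topoisomerase of dividing cells, had 11.32, 11.51, 11.76, 11.3, 11.18 and 8.18, against 10.94 to 11.23 in WT49 (median 11.04). Mcm4, of the helicase that opens DNA for replication, had 10.5, 10.86, 11.58, 11.92, 12.12 and 10.66, against 9.86 to 10.19, and rose (log2 change 1.26, limma adjusted p = 0.00241). By this probe Top2a was thus low on D alone, whereas Mcm4 was above every WT49 array on all 6 KO49 arrays and highest on C. Another tested probe of Top2a kept 6 pairs, against 12 for the one shown, and did not share its call. Relative to the median of all tested genes the list median was -0.12 with quantile normalization and -0.22 with cyclic loess, where its own median change was -0.3 in place of 0.18. Without D, 6 of the 12 were higher and 2 lower, beside 5193 and 2910 of all 12176 tested genes, and the median change was 0.37. In that setting 3 ran against the order (21.5% of all). Without D this asked for 0 or 1 of 10 pairs, a looser demand than 0 or 1 of 15.

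The mean of the spermatogonial list was above the WT49 arrays on all 6 KO49 arrays and highest on E and C. The list had 10 of 20 genes higher, near the 41.9% of all tested genes, none lower (23.6% of all) and 1 running against the order (22.1% of all), with means of 0.41, 0.48, 0.87, 1.1, 1.26 and 0.3 (WT49 arrays -0.17 to 0.17). Without D, 13 were higher, beside 5193 of all 12176 tested genes, and the list mean kept 0 of the 10 pairs. By the looser demand of 0 or 1 of 10 pairs, 10 then ran against the order (21.5% of all). Zbtb16, Nanos2, Nanos3, Lin28a, Bcl6b, Cdh1 and Dmrtb1 of this list were above background on at most 1 KO49 array. Kit, the receptor of differentiating spermatogonia, which Leydig cells also carry, had 10.45, 11.15, 11.62, 12.05, 11.6 and 12.46, against 9.32 to 10.32 in WT49, and rose (log2 change 1.55, limma adjusted p = 0.00152). Rhox13, a homeobox gene of germ cells, had 10.67, 10.57, 11.49, 11.62, 11.77 and 8.34, against 9.51 to 9.99 (median 9.74). Sohlh1, a transcription factor of differentiating spermatogonia, had 10.09, 9.98, 11.03, 10.98, 11.39 and 8.75, against 9.66 to 9.94. Stra8, the gene induced by retinoic acid before meiosis, had 6.03, 5.97, 6.28, 7.66, 7.74 and 4.92, against 4.93 to 5.39 (median 5.06), and was above background on B, E and C only. Kit was highest on D, while Rhox13, Sohlh1 and Stra8 were lowest there.

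Markers of the somatic cells of the testis stood highest where spermatid transcripts were lowest. All 16 Sertoli cell genes were higher in KO49, beside 41.9% of tested genes, 8 ran against the order (22.1% of all) and none followed it. The list mean was 0.81, 0.77, 1.77, 1.94, 1.97 and 2.48 above the WT49 mean (WT49 arrays -0.18 to 0.22). Sox9, the transcription factor of Sertoli cell fate, had 11.7, 11.99, 12.93, 13.3, 13.25 and 13.83, against 10.82 to 11.36 in WT49, and rose (log2 change 1.71, limma adjusted p = 0.00137). Fshr, the receptor for follicle-stimulating hormone, had 8.95, 9.08, 10.03, 10.6, 10.58 and 11.84, against 7.36 to 8.5, and rose (log2 change 2.23, limma adjusted p = 0.0015). Both were above the WT49 span on every KO49 array, F and A included. Gata1 was at least 2.38-fold higher in KO49, since no WT49 array was above background for it (limma adjusted p = 0.00272). Amh, the hormone of immature Sertoli cells, had 5.17, 5.25, 6.43, 7.01, 6.79 and 8.67, against 4.99 to 5.42 (median 5.02), and was above background on B, E, C and D but on no WT49 array. Cst9, a cystatin of Sertoli cells, was an exception on D, with 15.13, 15.08, 15.66, 15.3, 15.63 and 13.37, against 11.74 to 14.18.

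The Leydig cell list, of the cells that make testosterone, had 6 of 7 genes higher (41.9% of all tested genes), none lower and 3 running against the order (22.1% of all), with means of 0.49, 0.91, 1.4, 1.91, 1.39 and 2.37 (WT49 arrays -0.3 to 0.23). Cyp11a1, which makes the first steroid of the pathway, had 10.09, 10.48, 11.35, 12.06, 11.53 and 12.59, against 9.66 to 10.31 in WT49 (median 9.93), and rose (log2 change 1.43, SE 0.36, limma adjusted p = 0.00514). Insl3, a peptide hormone of Leydig cells and one of the brightest probes, had 15.64, 15.45, 15.61, 15.48, 15.64 and 15.4, against 15.08 to 15.57, and did not pass (limma adjusted p = 0.275). The peritubular myoid list had 6 of 8 genes higher and 1 lower (41.9% and 23.6% of all tested genes). Acta2, smooth muscle actin, had 13.39, 13.33, 14.2, 14.44, 14.55 and 14.84, against 12.31 to 12.65, whereas Actg2, another smooth muscle actin, had 12.62, 12.15, 10.71, 10.84, 10.69 and 10.69, against 13.39 to 13.59. Actg2 thus fell while 6 members of its list rose (log2 change -2.22, limma adjusted p = 0.000603).

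Of 12 macrophage genes 10 were higher and 1 lower (41.9% and 23.6% of all tested genes), 5 ran against the order and 1 followed it (22.1% and 14.4% of all), and the list mean was 0.43, 0.7, 1, 1.28, 1.01 and 2.14 (WT49 arrays -0.11 to 0.16). Csf1r, the receptor that macrophages need to survive, had 8.3, 8.76, 9.02, 9.52, 9.23 and 10.96, against 7.64 to 8 in WT49 (median 7.75). Aif1, a calcium-binding protein used as a macrophage marker, had 12.62, 12.06, 10.58, 10.48, 9.9 and 10.08, against 13.13 to 13.36 (median 13.23), and fell (log2 change -2.28, SE 0.41, limma adjusted p = 0.00126). Csf1r and Aif1 therefore went in opposite directions along the order, and the 2 other tested probes of Aif1 kept 14 and 13 pairs. On the WT15 arrays Aif1 stood at 6.84 to 7.89 and Csf1r at 7.95 to 9.46, so Aif1 was far higher in the older WT testis. Whether Aif1 reads macrophages in whole testis was not tested. The endothelial list had 5 of 8 genes higher (41.9% of all tested genes), none lower, with means of 0.15, -0.11, 0.27, 0.82, 0.8 and 1.74 (WT49 arrays -0.13 to 0.09). Without D 3 of the 8 were higher, beside 5193 of all 12176 tested genes. With the slide as a block Cdh5 and Cldn5, of endothelial junctions, lost their calls (limma adjusted p = 0.0556 and 0.0797). Of 3 red blood cell genes 2 were higher, with means of 0.57, 0.28, 0.26, 0.36, 1.02 and 1.47 (WT49 arrays -0.41 to 0.58). None of 3 epididymal genes was changed, and Adam7 of that list was above background on no 49-day array.

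Stress and reference genes also differed along the order. Of 12 genes of the integrated stress response 7 were higher (41.9% of all tested genes) and 3 lower, near the 23.6% of all. In that list 5 ran against the order (22.1% of all) and 2 followed it (14.4% of all). Without D, by the looser demand on 10 pairs, 2 ran against it (21.5% of all) and none followed it (13.9% of all). Atf4, the transcription factor at its centre, had 11.21, 11.6, 11.86, 12.27, 12.12 and 12.67, against 10.99 to 11.1 in WT49 (median 11.03), and rose (log2 change 0.91, limma adjusted p = 0.00339; 0.37 and 0.0636 with cyclic loess). Ddit3, a pro-apoptotic factor that ATF4 induces, had 11.05, 10.82, 10.47, 10.16, 10.15 and 9.95, against 11.07 to 11.23 (median 11.12), and fell (log2 change -0.7, SE 0.19, limma adjusted p = 0.00652). Chac1, an enzyme that degrades glutathione, had 6.92, 7.01, 6.89, 6.7, 6.24 and 5.89, against 7.86 to 8.34 (median 8.19), and fell (log2 change -1.54, SE 0.2, limma adjusted p = 0.00035). Atf4 and its targets Ddit3 and Chac1 thus ran in opposite directions. Without D, Ddit3 and Chac1 spanned less than 1 log2, so neither counted as following, though Ddit3 was still lower at every step. The other tested probe of Ddit3 kept 10 pairs, against 15 for the one shown, and shared its call. Ddit3 and Chac1 were also lower on the WT15 arrays (9.59 to 10.09 and 5.97 to 6.85) than on the WT49 arrays. Of 10 p53 target genes 7 were higher (41.9% of all tested genes), none was lower and 3 ran against the order, near the 22.1% of all. Sesn1, a stress-induced regulator of growth signalling, had 10.54, 11.08, 11.57, 11.99, 12.19 and 13.09, against 10.14 to 10.4 (median 10.3), and rose (log2 change 1.46, SE 0.34, limma adjusted p = 0.00338). The 2 other tested probes of Sesn1 kept 6 and 0 pairs, and 1 of them shared the call. Cdkn1a, the p53 target that halts the cell cycle, had 8.67, 8.77, 9.43, 9.61, 9.61 and 8.9, against 8.45 to 8.74, and D was close to F and A in it. Of 10 genes often used as references 6 were higher (41.9% of all tested genes), 1 lower (23.6% of all) and 2 ran against the order (22.1% of all). Ywhaz had 11.64, 12.07, 12.62, 13.15, 13.22 and 13.77, against 11.05 to 11.27, and Actb had 13.53, 13.51, 13.62, 13.88, 13.75 and 13.96, against 13.59 to 13.98, so Actb was at or near the WT49 span on all 6 KO49 arrays.

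Outside the lists, the widest ranges against the order came from D. Tnfrsf12a, the receptor for the cytokine TWEAK, had 6.64, 7.81, 8.04, 8.82, 8.46 and 10.58, against 4.98 to 5.68 in WT49 (median 5.21), and was at least 3.46-fold higher in KO49, as no WT49 array was above background (limma adjusted p = 0.000764). Septin11, a cytoskeletal GTPase, had 9.32, 9.76, 10.8, 10.87, 11.36 and 13.26, against 8.82 to 9.56 (median 9.12), and rose (log2 change 1.77, SE 0.52, limma adjusted p = 0.0107). Ahsg, the plasma protein fetuin-A, had 6.16, 5.57, 7.67, 8.08, 8.16 and 9.93, against 4.89 to 5.61, and was at least 1.99-fold higher (limma adjusted p = 0.00406). These 3 genes, with at most 1 pair out of place, were the ones of the 8 with the widest range that passed the test in every alternative fit that tested them. Gpx3, the secreted glutathione peroxidase, had 7.76, 8.36, 8.59, 10.4, 9.13 and 11.81, against 7.51 to 9.23 (median 8.27), and its change of 1.02 did not pass (limma adjusted p = 0.14). Adamts9, a protease of the extracellular matrix, had 5.27, 5.15, 5.58, 6.01, 9.1 and 10.84, against 5 to 8.16 (median 5.19). Wfdc18 had 4.95, 5.06, 5.26, 7.56, 6.61 and 9.54, against 4.83 to 5.33, and Cldn10, a claudin of tight junctions, had 5.36, 5.98, 6.17, 7.38, 6.65 and 9.62, against 5.96 to 7.15. Ly6e, a surface protein anchored by a lipid, had 9.19, 9.48, 10.31, 10.71, 10.57 and 13.08, against 8.56 to 9.84, and rose (log2 change 1.33, limma adjusted p = 0.0461), a call lost without any one of KO49 B, C and E and of WT49 A, B, C, D and F (adjusted p from 0.0599 to 0.0917 by limma). The other tested probe of Ly6e kept 1 pair and did not share the call. E and D lay above the WT49 span in Gpx3 and Cldn10, C and D in Adamts9, and E, C and D in Wfdc18, while F lay below it in Cldn10. Other tested probes kept 3 pairs for Adamts9, 4 and 4 for Cldn10 and 2 for Ahsg, so these probes did not meet the criterion for running against the order.

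A smaller set of genes was changed with little spread between the KO49 arrays. Of 12176 genes, 1575 were changed with a KO49 range under 1 log2 (12.9%), 1052 higher (8.64%) and 523 lower (4.3%). Without D, which widens many ranges, 2948 genes met this criterion, and leaving out each other KO49 array gave 1344 to 2229. On the authors' log2 values, which carry no background correction, 3312 genes met it. A narrow range does not make a gene independent of the order. Of the genes spanning less than 1 log2, changed or not, 303 kept 0 or 1 pairs and 88 kept 14 or 15. Fastkd3, a protein of mitochondrial RNA handling, had 5.61, 6.08, 6.16, 6.18, 6.57 and 5.8, against 7.9 to 8.76 in WT49 (median 8.67), and fell (log2 change -2.49, SE 0.2, limma adjusted p = 3.19e-05). Col8a1, a collagen chain, had 6.89, 7.46, 6.85, 6.63, 7.48 and 6.72, against 8.72 to 9.26 (median 9.05), and fell (log2 change -2, SE 0.18, limma adjusted p = 5.7e-05). Tm4sf4, a membrane protein with 4 spans, had 5.35, 5.52, 5.08, 5.38, 5.32 and 5.14, against 7.31 to 7.75, and was at least 2.15-fold lower, being above background on no KO49 array (limma adjusted p = 3.2e-06). In these 3 genes the KO49 and WT49 values did not overlap and F was about as low as D. Fastkd3 was above background on C alone among the KO49 arrays. A fall along the order therefore could not show in Fastkd3 or Tm4sf4, whereas Col8a1 was above background on all 6. Zscan10, a zinc finger transcription factor, was at least 2.35-fold lower, being above background on no KO49 array (limma adjusted p = 3.88e-05). Serpinb6c, a protease inhibitor, fell (log2 change -1.72, SE 0.2, limma adjusted p = 0.000179). It was not above background on E, C and D, and it kept 13 of the 15 pairs.

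The fitted rises of this kind were smaller than the fitted falls. Osbpl3, an oxysterol-binding protein, had 7.11, 7.49, 7.7, 7.61, 7.59 and 8.01, against 5.6 to 6.52 in WT49 (median 5.96), and rose (log2 change 1.52, SE 0.2, limma adjusted p = 0.000309). Gstm2, a glutathione transferase, had 15, 15, 15.67, 15.77, 15.66 and 15.74, against 13.91 to 14.34 (median 14.13), and rose (log2 change 1.33, SE 0.18, limma adjusted p = 0.000347). Psma2, a subunit of the proteasome core, had 13.27, 13.54, 14.02, 14.13, 14.21 and 14.05, against 12.39 to 12.7 (median 12.53), and rose (log2 change 1.32, SE 0.18, limma adjusted p = 0.00035). F was above all WT49 arrays in each of these genes, though F and A remained the lowest of the KO49 arrays. Osbpl3 and Gstm2 kept 3 of the 15 pairs and Psma2 kept 2, so the order still showed within their narrow ranges. Nipa1, a magnesium transporter, rose (log2 change 1.34, SE 0.17, limma adjusted p = 0.000288), and Rrp8, which methylates an adenosine of ribosomal RNA, was at least 1.23-fold higher (limma adjusted p = 0.000286). Nipa1 kept 5 pairs and Rrp8 kept 1.

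In 567 genes (4.66%) 1 KO49 array stood apart from the other 5, and in all but 15 of these that array was D. D was below the others in 447 genes (3.67%) and above them in 105 (0.862%). These numbers depend on the scaling: cyclic loess gave 340 below and 295 above, scale normalization 696 and 29, and the authors' log2 values 241 and 56. Of the 447, 332 were not changed in the comparison of KO49 with WT49, and in 213 the other 5 KO49 arrays stayed within 0.5 log2 of the WT49 span. Msh4, which promotes crossovers in meiosis, had 9.36, 9.44, 9.25, 9.16, 9.51 and 5.49, against 9.01 to 9.35 in WT49 (median 9.14). Hormad2, a protein of the meiotic chromosome axis, had 9.17, 9.37, 9.79, 8.98, 9.08 and 5.53, against 8.88 to 9.04 (median 8.99). Pdrg1 had 10.37, 9.12, 11.38, 10.42, 11.23 and 4.94, against 9.02 to 10.04, and Myt1l, best known as a neuronal transcription factor, had 9.04, 9.1, 8.84, 8.77, 8.8 and 5.38, against 9 to 9.3. On D all 4 were not above background, while C, its neighbour in the order, showed no such drop in Msh4 or Hormad2. The other tested probe of Myt1l kept 12 pairs, against 13 for the one shown, and did not share its call.

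Among genes in which D was set apart above the other KO49 arrays, Aqp1, a water channel, had 5.12, 5.36, 5.95, 5.41, 5.44 and 8.76, against 4.97 to 5.62 in WT49. Ccl12, a chemokine, had 5.24, 6.14, 5.13, 6.13, 5.53 and 8.53, against 5.12 to 5.92. Rasgrp1, an activator of Ras, had 5.36, 5.27, 4.85, 5.44, 5.14 and 8.32, against 4.79 to 5.44, and the matrix protein gene Spon2 had 5.69, 6.06, 5.86, 6.84, 6.37 and 9.31, against 5 to 5.52. Aqp1, Ccl12 and Rasgrp1 were above background on D and on no other 49-day array, whereas Spon2 was above every WT49 array on all 6 KO49 arrays and was at least 1.06-fold higher in KO49, as no WT49 array was above background (limma adjusted p = 0.0204). The other arrays stood apart in 15 genes. F was above the others in 7 genes, among them Npcd with 7.59, 5.8, 4.77, 4.8, 4.85 and 4.85, against 8.88 to 9.36 in WT49, and Kcnip2, which binds potassium channels, with 8.21, 6.05, 5.81, 5.41, 5.77 and 5.26, against 8.09 to 9.22. Npcd and Kcnip2 were above background on F alone among the KO49 arrays and on every WT49 array.

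The last kind of gene stood at 2 levels among the KO49 arrays, with 4 to 11 of the 15 pairs kept. These were 31 genes (0.255%). In 20 of them the levels cut across the order, in the other 11 the high arrays were the first or the last places of it, and in 18 of the 31 of them the WT49 arrays also spanned at least 1 log2. Csrp1, an adaptor protein of the actin cytoskeleton, had 5.27, 10.48, 5.14, 10.38, 10.33 and 11.8, against 8.76 to 10.01 in WT49 (median 9.32), so F and B lacked the signal and the other KO49 arrays were at or above the WT49 level. Thumpd1, an adaptor for acetylation of transfer RNA, had 5.05, 9.81, 4.91, 11.34, 4.78 and 10.16, against 9.35 to 10.34. Fam181b had 8.98, 4.85, 9.92, 4.82, 9.96 and 4.93, against 4.82 to 8.15. The same arrays, F, B and C, that were not above background for Thumpd1 were high for Fam181b, and A, E and D showed the reverse. Rps3, a protein of the small ribosomal subunit picked after its values were seen, had 10.69, 12.56, 10.71, 12.95, 11 and 12.81, against 10.2 to 12.13, with A, E and D again on the high side. Syce1, of the synaptonemal complex, was high on F, B and C at 13.09, 11.44 and 12.29 and low on A and E at 5.58 and 5.26, with D at 8.8, and in WT49 it was 5.76 on D and 12 to 12.97 on the other 5 arrays.

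Thumpd1, Fam181b, Rps3 and Syce1, which is not one of the 31, all lie on chromosome 7. Of the 31 genes only 4 lie there (12.9%, against 7.74% of tested genes), and Bbc3 among them split otherwise, being high on E, C and D. Larger differences were seen on chromosome 6 (6 genes, 19.4% against 4.98%), chromosome 1 (5 genes, 16.1% against 5.22%) and chromosome 16 (4 genes, 12.9% against 3.02%). With so few genes these shares were not tested. Casp9, an initiator caspase, had 5.19, 9.63, 10.4, 9.59, 6.09 and 10.26, against 5.03 to 9.59 in WT49, where 4 of 6 arrays were above background. The other tested probe of Casp9 kept 2 pairs, against 6 for the one shown. Olig1 had 8.82, 8.34, 7.94, 5.4, 5.17 and 9.06, against 5.04 to 9.4, and Trmt10c, a subunit of the mitochondrial ribonuclease P, had 7.46, 5.14, 5.08, 8.21, 5.13 and 5.24, against 4.9 to 7.56. In Casp9, Olig1, Trmt10c and Fam181b the WT49 arrays too stood at a high and a low level. Of the 11 that split along the order, 6 were high on A and F only, among them Sppl2c, an intramembrane protease, also picked after its values were seen, with 10.26, 10.18, 8.43, 8.63, 8.32 and 8.73, against 10.97 to 11.66. The groups of arrays at the high and the low level differed from gene to gene, and the 2 knock-out lines could not be set against them because the labels do not give the line of an array.

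**Figure D5:**
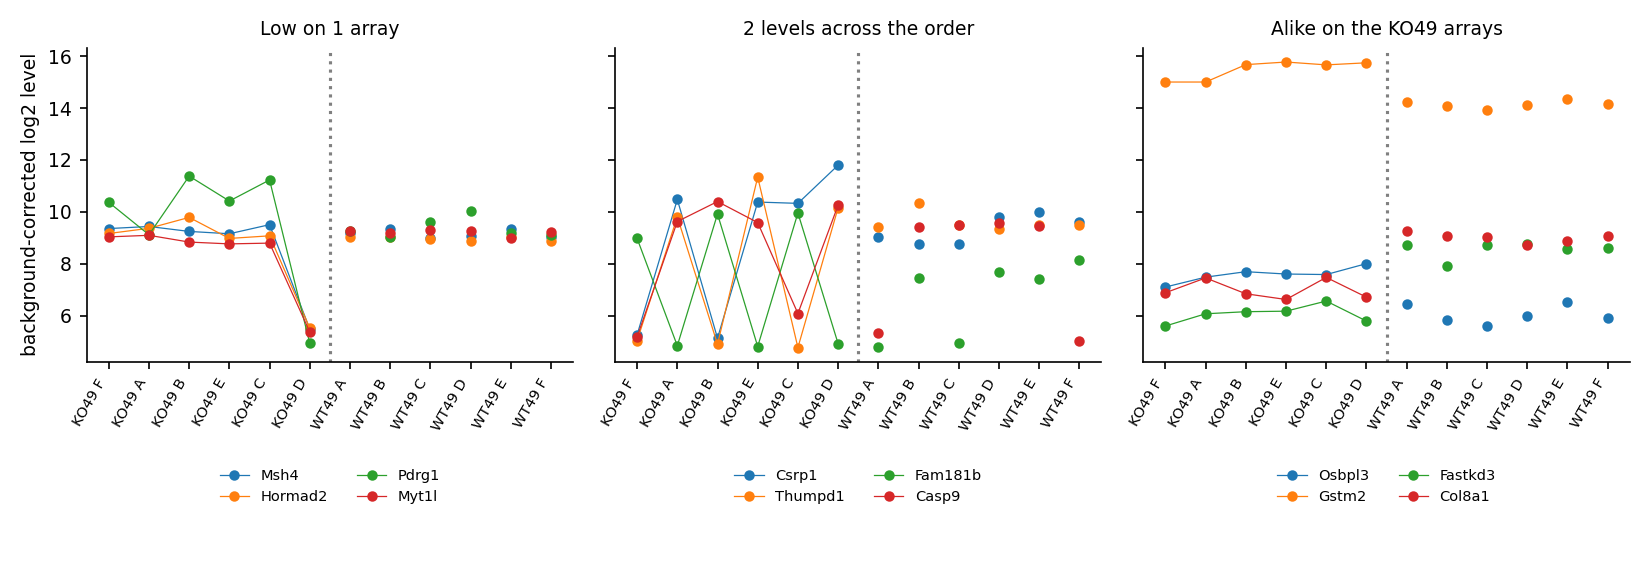
Background-corrected log2 level of 4 genes each that were low on D alone (left), at 2 levels across the order (centre) and alike on the KO49 arrays (right), for the KO49 arrays in order and then the WT49 arrays. Msh4 stays between 9.16 and 9.51 on 5 KO49 arrays and is 5.49 on D, and Fastkd3 stays between 5.61 and 6.57 on all 6. Fastkd3 is above background on C alone of these 6 arrays.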

How the data were processed

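Total RNA of whole testis was labelled with biotin and read on Illumina mouse beadchips, per the labels' protocols. The deposited table of intensity values, not normalized, holds 45278 probes and 956 control rows per array, with empty detection p columns. The log2 values of the authors' deposited value table equalled quantile-normalized log2 intensities to within 3.62e-05. Neither the scanner software nor the build of the array is stated in the labels or files used.

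For each gene's level, intensities were background-corrected by normexp on 946 dim control rows (offset 16) and quantile normalized with limma 3.58.1 in R 4.3.3. The limit for calling a probe above background was that under 1% of the dim control rows (p limit 0.01) were as bright on that array. The brighter share of 0.5 of the probes (22639) was tested. Gene names came from the platform annotation, updated through gene identifiers: 34885 probes had 1 symbol, 18 several and 10375 are unnamed here.

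KO49 was compared with WT49 in a limma fit of 12 arrays (10 residual degrees of freedom), two-sided, with Benjamini-Hochberg adjustment over all tested probes and a threshold of 0.05. Log2 changes are on the offset scale, which understates the change of dim probes, and where a group had no array above background the fold is a lower bound, taken against each array's lowest signal among probes above background. A self-test on simulated arrays with known changes and known orders was run with the same functions. Number of arrays limits the precision.

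The arrays were ordered, and the gene lists chosen, with earlier results of these data known. Genes were named by rule: Nsun2, the ordering genes, the 8 widest ranges following and the 8 running against the order, the 5 largest rises and the 5 largest falls with a KO49 range under 1, the widest gaps of single arrays (4 above and 4 below for D, up to 2 for each other array), the 6 widest gaps of genes at 2 levels, and up to 3 members of each of 18 lists with the widest range plus any running the other way. Of 263 list entries 243 were named on the array and 213 tested. Alternatives were other scalings, filters, ordering genes, limits, blocks, array weights, all 24 arrays, and leaving out arrays in turn; leaving out arrays for genes alike in KO49 and for the lists, and Syce1 from its list, was added after seeing the data. The replicate letters were checked for pairing: deviations of same-letter KO49 and WT49 arrays correlated between -0.208 and 0.188, so they were not treated as pairs.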

Additional observations from a re-analysis of the deposited data

Results flagged for a closer look

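In 37 of 256 groups of 6 values examined, the highest or lowest array lay far from the other 5 for the range of the group; chance alone flags about 5% of groups, and genes named because 1 array stood apart are among them by choice. KO49 replicate D was that array in 17. Its mean level minus the WT49 mean was -2.87 in the early meiotic prophase list (other KO49 arrays -0.54 to 0.23), -2.36 in the chromatoid body and piRNA pathway list (-0.46 to 0.17) and -1.16 in the cell division list (0.3 to 0.59). D was low in Msh4 (5.49), Hormad2 (5.53), Pdrg1 (4.94), Myt1l (5.38), Rhox13 (8.34) and Sycp2 (7.04). It was also low in Dkkl1, an acrosomal protein gene (9.47), Dnah17 (6.11), Top2a (8.18) and Aurka, a mitotic kinase gene (9.02). It was high in Rasgrp1 (8.32), Aqp1 (8.76), Spon2 (9.31) and Ccl12 (8.53).

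Other KO49 arrays stood apart in single genes. A was high in Gal3st2 (6.86) and low in Ptprv (8.84, others 11.15 to 11.69). B was high in Fam199x (6.46) and low in Uap1 (7.87, others 9.4 to 10.31) and in the steroid enzyme gene Hsd3b2 (11.24, others 12.5 to 13.03). C was high in Psmd8, a proteasome subunit gene (12.74, others 11.45 to 11.74). F was high in Kcnip2 (8.21) and Npcd (7.59) and low in Lcor (6.25).

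WT49 arrays stood apart in 11 groups. WT49 D was low in the early meiotic prophase list (-0.45) and in its member Syce1 (5.76), and high in Trmt10c (7.56) and Amh (5.42). WT49 A was high in Wfdc18 (5.33) and low in Serpinb6c (7.09), WT49 B was low in Fastkd3 (7.9) and high in Thumpd1 (10.34), WT49 C was low in Olig1 (5.04), WT49 E was low in Myt1l (9.0) and WT49 F was high in Adamts9 (8.16). Outside the 49-day arrays, KO15 replicate B had an ordering mean of 7.86 on the authors' log2 scale, above the 7.7 to 7.78 of the WT15 arrays.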

How the results depend on the processing

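The order kept all 15 pairs on the background-corrected, scale-normalized and cyclic loess values and without Catsper1, Tssk6, Prm3 or Spata3, and 14 pairs without Izumo1. Genes changed in KO49 against WT49 numbered 7013 to 8577 over the fits that left out 1 array each, 7039 with the slide as a block, 7262 with a replicate block on the letters, 8903 with all 24 arrays and 10409 with array weights. Leaving out 1 KO49 array leaves 10 pairs, and a gene then followed the order at 9 or 10 and ran against it at 0 or 1. This is a looser demand than 14 or 15 of 15 pairs, so those counts are not like for like with the main ones. Genes following the order numbered 1692 to 2444 when 1 KO49 array was left out, 756 when all 15 pairs were asked for and 1143 among probes above background on all 12 arrays, a smaller set of genes, and 2370 with cyclic loess. Genes running against it numbered 2618 to 3859 when 1 KO49 array was left out, 843 with all 15 pairs, 1124 with a range of at least 2 and 1312 with cyclic loess. On the authors' log2 values, which carry no background correction, 3312 genes were changed alike, 303 had 1 array apart and 6 stood at 2 levels. Leaving out 1 KO49 array each gave 1344 to 2948 genes changed alike. Genes with D alone below numbered 241 on the authors' values, 696 with scale normalization and 340 with cyclic loess, and genes with D alone above 56 and 29, and 295 with cyclic loess; the cause was not tested. Of 91 single genes refitted, 67 kept their direction and call in every alternative, 21 lost the call in some, 3 gained it in some, and Cldn10 reversed, from a log2 change of 0.27 to -0.28 without KO49 replicate D, with up to 0.57 when another array was left out. The list medians of early meiotic prophase, cell division and epididymis changed sign in some alternative.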
